A study of Rattus norvegicus with 6 samples.

Results

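The amino acid response run by the transcription factor ATF4 was examined together with the cytosolic aminoacyl-tRNA synthetases, as 39 named genes of the 16849 in the table of RSC96 cells, an immortalised Schwann cell line of the rat. The genes were taken from a list of names, with no measured value in the rule, though earlier results of these data were known when the list was chosen. The names of 35 were found as written, and Cars1, Eprs1, Gars1 and Kars1 were found by gene identifier under their older symbols without the final 1. By role they comprised 4 transcription factors, 4 stress effectors, 8 enzymes of amino acid and one-carbon synthesis, 7 amino acid transporters or transporter subunits and 16 tRNA synthetases. All 39 passed the filter on low counts and were tested among 13018 genes.

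RNA sequencing covered 6 libraries in 3 groups of 2, and all cells were labelled wild type. Libraries named PVDF@PDA came from cells given hypoxia with a piezoelectric material, and those named PCL@PDA from cells given hypoxia with a material that is not piezoelectric. The hypoxia was modelled by 24 h in medium conditioned by macrophages, which the labels name for both material groups; for the Control group they name neither hypoxia nor that medium. Material, hypoxia and conditioned medium therefore cannot be told apart in a comparison with Control, and only PVDF@PDA against PCL@PDA compares the materials. Each group had 1 library of batch 1 (replicate 1) and 1 of batch 3 (replicate 3); the replicate numbers are those of the titles and batches, while the library names number the second library of each group 2. In the PCL@PDA group the free-text description gives the name PVDF@PDA; titles and treatment fields were followed. Separate cultures are not mentioned in the labels, so the p-values measure the spread between these libraries, which may be technical.

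When amino acids run short or unfolded protein builds up, kinases phosphorylate the translation factor eIF2, general protein synthesis slows, and the mRNA of Atf4 is translated more. ATF4 then pairs with members of the C/EBP family on a composite DNA element and switches on genes that make amino acids, import them and load them on tRNAs. Much of this control of ATF4 acts on its translation, so the level of Atf4 mRNA need not follow the activity of the protein.

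Library totals ranged from 32760123 to 35389307 counts, and the 39 genes together took between 1.37% and 1.42% of the counts of each library. The defining Schwann cell genes S100b, Mbp, Ngfr and Cdh19 were at or near 0 in these cells (at most 0.502 FPKM for S100b, read fragments per kilobase of gene, scaled to library size), while Pmp22 and Ncam1 were expressed, up to 26.6 and 14.6 FPKM. The 10 Schwann cell markers summed to 35.2 and 38.0 FPKM in Control and to between 42.1 and 45.6 FPKM with a material, Pmp22 and Ncam1 being higher and Erbb3 lower in both comparisons with Control. The macrophage genes Ptprc, Itgam, Aif1 and Mrc1 had at most 7 counts in any library, and the 10 macrophage markers of 12 that the table held summed to 5.55 to 6.01 FPKM in every library. Within that sum Coro1a lay at 0.965 to 1.19 FPKM with a material against 0.492 and 0.529 FPKM in Control, and Cd14 at 2.97 to 3.35 FPKM, below both Control libraries (up to 3.95 FPKM), neither passing the test. Of 8 fibroblast markers 7 were listed, and they summed to between 214 and 227 FPKM. Most of that sum was Col1a2 (135 to 148 FPKM) and Thy1 (65.1 to 78.4 FPKM), high in all 3 groups. Dcn, Fap and Col3a1 were at or near 0, with at most 1, 5 and 19 counts in any library. Col1a1 (3.47 to 3.64 FPKM with a material, 2.08 and 2.24 in Control) and Pdgfra (3.60 to 4.32, against 2.41 and 2.52) were higher and Col1a2 lower in both comparisons with Control. The part of these shifts in the results below was not tested. Replicate 3 of PCL@PDA stood apart from the others: set against replicate 1 of its group, the chi-square divided by its degrees of freedom was 10.2, compared with 4.80 for the PVDF@PDA pair and 5.56 for the Control pair. Where a member's call with PCL@PDA against Control changed without that library, the value without it is given. Where a call with PVDF@PDA against Control changed, the gene is named. In these bulk samples fewer cells of a type and less RNA per cell cannot be told apart.

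The 39 genes were mostly abundant. Their median level was 95.6 FPKM averaged over the 6 libraries, against 3.74 FPKM for all genes of the table. Sars1, which charges tRNA with serine, was the most abundant synthetase at a mean of 335 FPKM, close to Atf4 at 331 FPKM. Nars1, for asparagine, followed at 279 FPKM and Yars1, for tyrosine, at 270 FPKM. Vars1, for valine, was the least abundant of the 16 synthetases at 39.9 FPKM. Chac1, which degrades glutathione, and Slc3a2, the shared heavy chain of several amino acid exchangers, were comparably abundant at 288 and 280 FPKM. At the other end stood Vldlr, a lipoprotein receptor, at 4.37 FPKM and the glycine transporter Slc6a9 at 18.3 FPKM. The mitochondrial tRNA synthetases that have a gene of their own are not members. They lay lower, between 0.357 and 18.3 FPKM with a median of 5.36 FPKM for 17 genes. That list holds no separate gene for the mitochondrial enzymes of glycine and lysine.

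**Figure D1:**
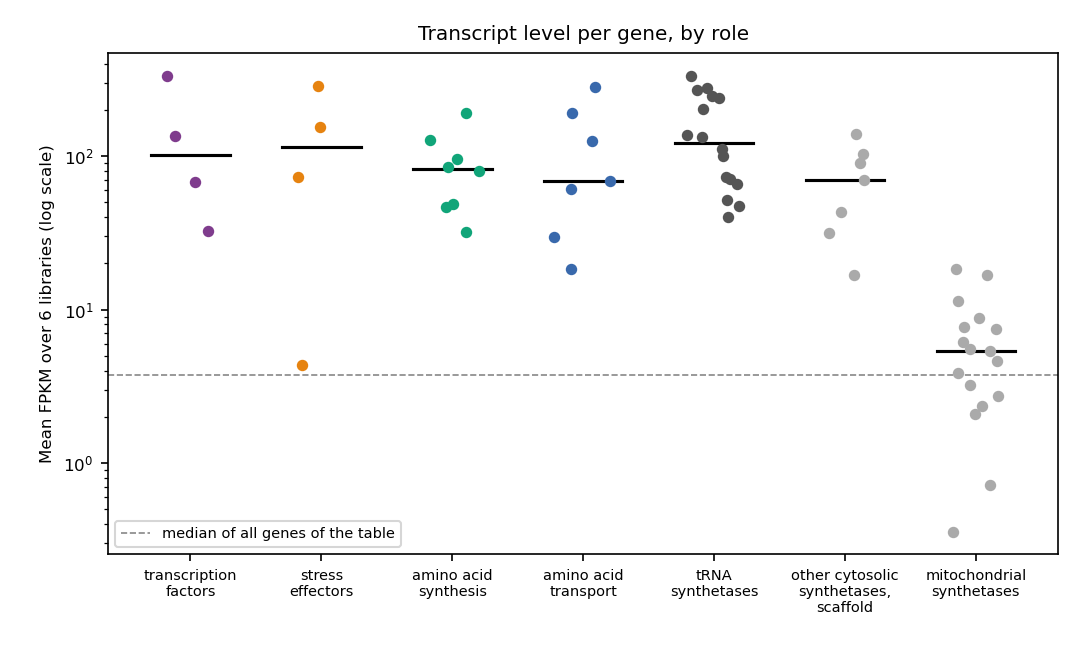
Mean FPKM over the 6 libraries on a log axis for each gene, grouped by role, with a black bar at the median of each group and a dashed line at the median of all genes in the table (3.74 FPKM). The 16 member synthetases lie between 39.9 and 335 FPKM, and the 17 mitochondrial synthetases with a gene of their own between 0.357 and 18.3 FPKM.

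The composite element bound by ATF4 with a C/EBP partner was looked for in promoter windows of RefSeq (build GRCr8). These windows run from 250 bases before to 50 bases after each gene's start. The list is named for the ATF4 response, so a share above that of all genes is no independent support. Windows were found for 35 of the 39 genes; none was matched for Aldh18a1, Slc1a5, Gars1 and Rars1. The letters TGATGNAA, where N is any base, occurred on either strand in 12 of the 35 genes (34.3%), against 2.63% of the 13462 genes of the count table with a window. The stricter form TGATGCAA, which TGATGNAA contains, occurred in 10 of 35 genes (28.6%) against 0.683%. Among roles, 7 of 14 synthetases with a window held the element, and it was found in Chac1 and Trib3 of the stress effectors, Slc7a1 and Slc1a4 of the transporters, Pycr1 of the synthesis enzymes and none of the 4 transcription factors. A match is a description of the letters and shows no binding, and a window without one says nothing about ATF4.

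The promoter stretches below show that the same 8 letters recur at different places, near the start in Tars1, Iars1 and Mars1 and farther upstream in Chac1, Aars1 and Pycr1. Tars1 and Iars1 were called lower than Control with either material, and Mars1 with PVDF@PDA. Nars1 (-14 to -7) and Trib3 (-21 to -14, as TGATGTAA) also hold the element near the start, and neither was called in the comparisons with Control. Each stretch below is written 5′ to 3′ on the gene's strand, from RefSeq, with the element in capitals. Positions are counted from 0 at the start base.
Tars1, threonine, minus strand, chr2:62114803-62114859, element at -27 to -20: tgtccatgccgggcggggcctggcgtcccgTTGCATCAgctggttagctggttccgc
Iars1, isoleucine, minus strand, chr17:15193653-15193706, element at -24 to -17: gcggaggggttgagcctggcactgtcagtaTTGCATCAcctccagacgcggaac
Mars1, methionine, minus strand, chr7:65023754-65023800, element at -17 to -10: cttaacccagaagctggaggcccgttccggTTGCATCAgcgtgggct
Aars1, alanine, plus strand, chr19:55908340-55908407, element at -112 to -105: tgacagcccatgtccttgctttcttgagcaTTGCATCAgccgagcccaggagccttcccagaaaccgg
Chac1, plus strand, chr3:126795934-126796001, element at -167 to -160: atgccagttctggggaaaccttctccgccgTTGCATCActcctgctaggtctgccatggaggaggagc
Pycr1, proline synthesis, minus strand, chr10:106420906-106420973, element at -131 to -124: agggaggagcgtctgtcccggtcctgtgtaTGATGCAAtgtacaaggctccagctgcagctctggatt
In the first 5 the element lies on the strand opposite to the gene, so its reverse complement is read, and in Pycr1 it lies on the gene's own strand.

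**Figure D2:**
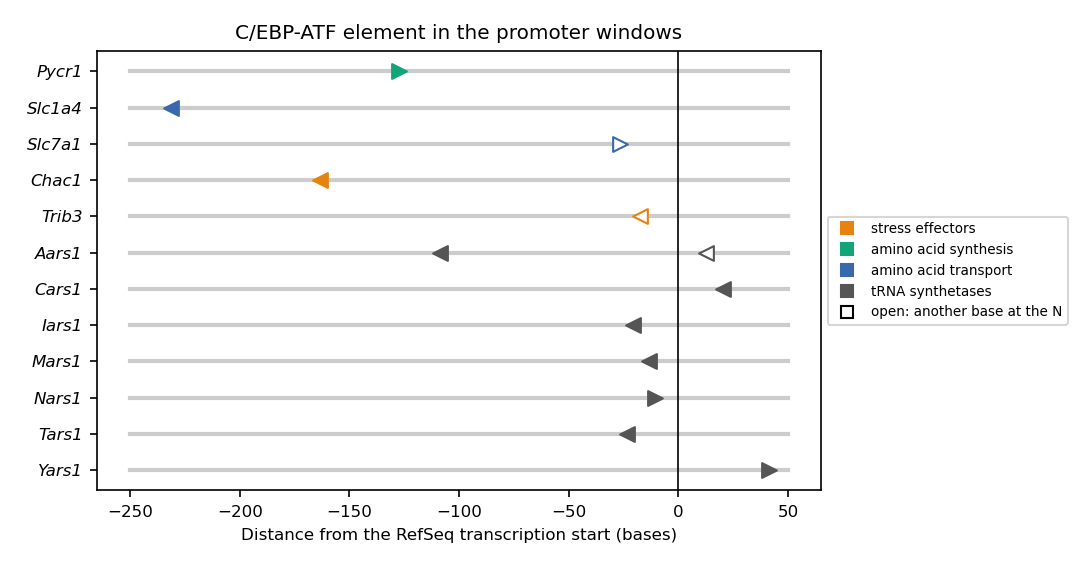
Place of the element TGATGNAA in the promoter windows of the 12 genes that hold it; the horizontal axis is the distance in bases from the RefSeq start, the arrow gives the strand relative to the gene, filled arrows are TGATGCAA and open arrows have another base at N. In Tars1, Iars1, Mars1, Nars1 and Trib3 the element ends within 20 bases before the start, and in Chac1 it begins 167 bases before it.

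Compared with Control, fewer of these genes rose than fell. With PVDF@PDA, 3 of the 39 were higher and 11 lower by edgeR's quasi-likelihood test at an adjusted p under 0.05 (7.69% and 28.2%), where 6.79% of all tested genes were higher and 8.90% lower (15.7% in either direction). With PCL@PDA, 2 were higher and 10 lower (5.13% and 25.6%), where 8.77% of all genes were higher and 11.3% lower (20.1% in either direction). The shares of higher genes were thus near the background in both comparisons. The shares of all genes, here and below, were not matched for level. The members had a median of 95.6 FPKM, against 3.74 FPKM for all genes of the table. Both comparisons use the same 2 Control libraries, so their values are set side by side below and do not support each other. The lower calls were mostly synthetases, 7 in each comparison. Both PVDF@PDA libraries lay above both Control libraries for 8 members and below them for 23 (of all genes 29.4% and 29.2%, or 58.5% in either direction), and for PCL@PDA the numbers were 7 and 19 (of all genes 28.3% and 27.8%, or 56.2%).

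The number of calls rested on single libraries. In place of the 14 with PVDF@PDA there were 7 on omitting PVDF@PDA replicate 1, 5 on omitting PVDF@PDA replicate 3, 5 on omitting Control replicate 1 and 7 on omitting Control replicate 3. Calls over all genes dropped in the same fits, from 15.7% to 8.84%, 7.71%, 8.07% and 9.43% in that order. On omitting PCL@PDA replicate 1 or 3 there were 20 and 19 members, with 21.3% and 21.4% of all genes. In place of the 12 with PCL@PDA there were 4 on omitting Control replicate 1 (all genes 10%), 5 on omitting Control replicate 3 (13.4%) and 18 on omitting PCL@PDA replicate 3 (14.7%).

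The members gained with PCL@PDA on omitting PCL@PDA replicate 3 were Ddit3 (log2 difference 0.24, adjusted p = 0.00211), Trib3 (-0.20, adjusted p = 0.0298), Shmt2, Slc6a9, Slc7a1 (-0.14, adjusted p = 0.0448), Mars1 (-0.19, adjusted p = 0.00514) and Wars1 (-0.18, adjusted p = 0.0294), and Eprs1 was lost (-0.10, adjusted p = 0.0964). On omitting PCL@PDA replicate 1, Psat1 (0.17, adjusted p = 0.00656) and Aldh18a1 (0.19, adjusted p = 0.00254) were gained and Sesn2 was lost. On omitting either of those libraries, the members gained with PVDF@PDA were Slc7a5, Slc7a1, Eprs1 and Wars1 on the lower side and Rars1 on the higher, and Nars1 was gained on the higher side on omitting PCL@PDA replicate 1 alone.

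Scaling by library totals alone moved the balance to 5 higher and 9 lower with PVDF@PDA and to 5 higher and 5 lower with PCL@PDA, and that of all genes from 884 higher and 1158 lower to 1164 and 879 with PVDF@PDA, and from 1142 and 1474 to 1482 and 1070 with PCL@PDA.

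**Figure D3:**
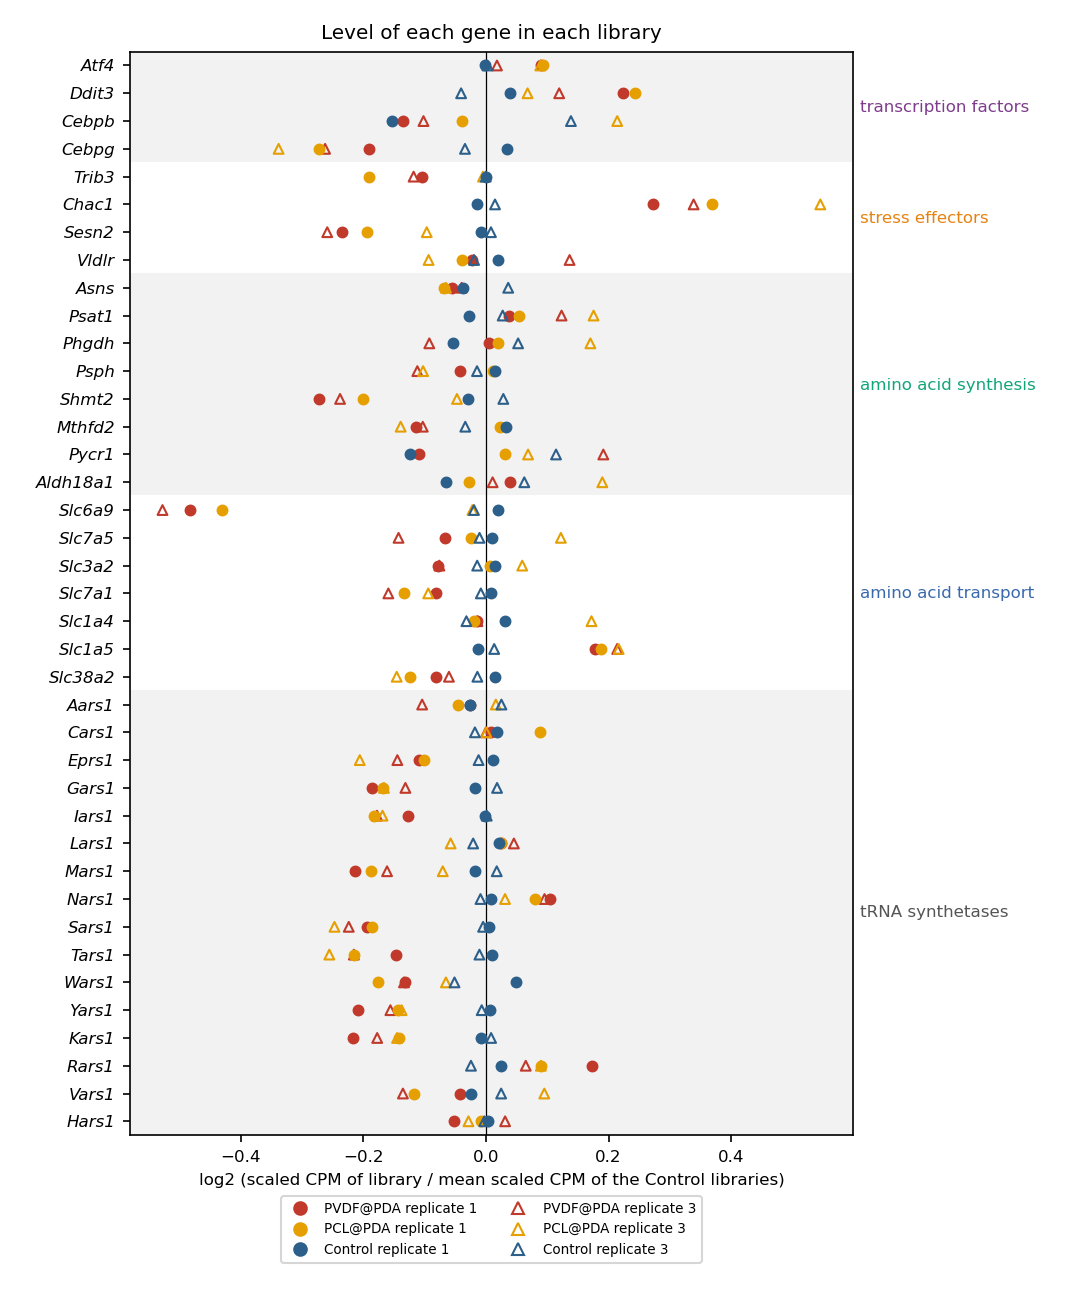
Level of each of the 39 genes in each of the 6 libraries as log2 of its scaled CPM (a library-size scaled count) over the mean of the 2 Control libraries; circles are replicate 1 and triangles replicate 3. Chac1 and Slc1a5 lie to the right of Control in all 4 libraries with a material, and Cebpg, Sars1, Tars1, Yars1 and Kars1 lie to the left in all 4.

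Among the transcription factors, Atf4 itself did not pass the test. Atf4 stood at 582 and 554 CPM (counts scaled to library size with TMM factors, here for replicates 1 and 3) with PVDF@PDA, at 583 and 582 CPM with PCL@PDA and at 546 and 548 CPM in Control. All 4 libraries with a material thus lay above both Control libraries, by a log2 difference of 0.054 with PVDF@PDA (adjusted p = 0.522) and 0.091 with PCL@PDA (adjusted p = 0.217, or 0.0332 with library totals alone). Cebpg, a C/EBP protein that pairs with ATF4, stood at 343 and 327 CPM with PVDF@PDA, 324 and 310 CPM with PCL@PDA, and 401 and 383 CPM in Control. Its groups with a material lay wholly below Control, and Cebpg fell by 0.23 ± 0.053 (SE) on the log2 scale with PVDF@PDA (adjusted p = 0.00143) and by 0.31 ± 0.053 with PCL@PDA (adjusted p = 1.47e-05). The PVDF@PDA call of Cebpg was lost without PVDF@PDA replicate 3 or Control replicate 1, at an adjusted p of up to 0.0861.

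Ddit3, also called CHOP, is a C/EBP relative that ATF4 induces under lasting stress. Its level was 156 and 145 CPM with PVDF@PDA, 158 and 140 CPM with PCL@PDA and 137 and 130 CPM in Control. Every library with a material lay above both Control libraries, but PCL@PDA replicate 3 only narrowly. Ddit3 rose by 0.17 ± 0.062 (SE) on the log2 scale with PVDF@PDA (adjusted p = 0.0492), a call lost in 7 of 13 alternatives, among them DESeq2 and the omission of any of the 4 libraries compared (adjusted p up to 0.423). With PCL@PDA the difference was 0.16 (adjusted p = 0.0642), and with the batch as a replicate block it passed (adjusted p = 0.0236). Cebpb, another C/EBP partner, ran from 41.9 CPM in Control replicate 1 to 54.1 CPM in PCL@PDA replicate 3, and its groups overlapped in both comparisons with Control.

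The stress effectors went different ways. Chac1 had 453 and 474 CPM with PVDF@PDA, 484 and 547 CPM with PCL@PDA and 371 and 378 CPM in Control. It was the most raised of the 39 genes in both comparisons, with no overlap between groups: the log2 difference was 0.31 ± 0.054 (SE) with PVDF@PDA (adjusted p = 2.75e-05) and 0.46 ± 0.054 with PCL@PDA (adjusted p = 3.34e-09). Sesn2, a sestrin that restrains mTORC1 signalling when leucine is short, had 390 and 384 CPM with PVDF@PDA, 401 and 429 CPM with PCL@PDA and 457 and 462 CPM in Control. All 4 libraries with a material were below both Control libraries, and Sesn2 fell by 0.25 ± 0.052 on the log2 scale with PVDF@PDA (adjusted p = 0.000351) and by 0.15 ± 0.052 with PCL@PDA (adjusted p = 0.0374).

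The PCL@PDA call of Sesn2 was held in 6 of 13 alternatives and was lost with library totals alone, with only the 4 libraries compared, and on omitting either PVDF@PDA library, PCL@PDA replicate 1 or either Control library (adjusted p up to 0.188). Trib3, a pseudokinase that feeds back on ATF4, ran from 96.4 to 110 CPM over the 6 libraries. Its log2 differences from Control were -0.11 with PVDF@PDA (adjusted p = 0.259) and -0.095 with PCL@PDA (adjusted p = 0.333), the latter -0.20 without PCL@PDA replicate 3 (adjusted p = 0.0298). Vldlr was the least counted member, at 17.3 to 20.2 CPM, with 95% intervals from -0.18 to 0.30 with PVDF@PDA and from -0.31 to 0.18 with PCL@PDA.

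The enzymes of amino acid synthesis changed little. Of 8, 1 fell with PVDF@PDA (12.5%, against 8.90% of all genes). None passed the test with PCL@PDA, where 20.1% of all genes did in either direction. There 2 had an unadjusted p under 0.05, against 4036 of 13018 genes, and DESeq2 called none of the 8. Shmt2, the mitochondrial enzyme that turns serine into glycine and a one-carbon unit, had 179 and 184 CPM with PVDF@PDA, 189 and 210 CPM with PCL@PDA and 212 and 221 CPM in Control. PVDF@PDA was lowest and Control highest, with PCL@PDA replicate 3 just under Control. Shmt2 fell by 0.26 ± 0.058 (SE) on the log2 scale with PVDF@PDA (adjusted p = 0.00097), and its difference with PCL@PDA was -0.12 (adjusted p = 0.134), or -0.20 without PCL@PDA replicate 3 (adjusted p = 0.00563).

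Asns, which makes asparagine and is a standard readout of the ATF4 response, stood at 550 and 556 CPM with PVDF@PDA, 545 and 546 CPM with PCL@PDA and 557 and 586 CPM in Control. The gap to Control was small, at -0.047 with PVDF@PDA (95% interval -0.15 to 0.053) and -0.067 with PCL@PDA (95% interval -0.17 to 0.033) on the log2 scale. The 3 steps of serine synthesis from glycolysis, Phgdh, Psat1 and Psph, differed in sign. Psat1 was above Control in all 4 libraries with a material, at log2 differences of 0.081 (adjusted p = 0.354) and 0.12 (adjusted p = 0.14, past the threshold with library totals alone). Phgdh overlapped Control in both comparisons, and Psph lay below 0 in both, at -0.077 and -0.045. For the proline enzymes Pycr1 and Aldh18a1 the differences ranged from 0.025 to 0.085, and for Mthfd2, a mitochondrial folate enzyme, they were -0.11 with PVDF@PDA (adjusted p = 0.211) and -0.056 with PCL@PDA (adjusted p = 0.552).

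Among the transporters the calls went in opposite directions. Slc6a9, which carries glycine, stood at 52.1 and 50.5 CPM with PVDF@PDA, 54.0 and 71.7 CPM with PCL@PDA and 73.8 and 71.8 CPM in Control. The replicates of PCL@PDA split, replicate 1 lying with PVDF@PDA and replicate 3 with Control. Slc6a9 fell by 0.51 ± 0.089 (SE) on the log2 scale with PVDF@PDA (adjusted p = 8.8e-05), the largest difference among the 39 genes. With PCL@PDA it was -0.21 (adjusted p = 0.0884), and -0.43 without PCL@PDA replicate 3 (adjusted p = 1.51e-05) but -0.023 without PCL@PDA replicate 1 (adjusted p = 0.885). With the batch as a replicate block the PCL@PDA difference passed as well (adjusted p = 0.0145).

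Slc1a5, the glutamine carrier ASCT2, had 186 and 191 CPM with PVDF@PDA, 187 and 191 CPM with PCL@PDA and 163 and 166 CPM in Control. The 4 libraries with a material were nearly level and all above Control. Slc1a5 rose by 0.20 ± 0.056 (SE) on the log2 scale with PVDF@PDA (adjusted p = 0.011) and by 0.20 ± 0.056 with PCL@PDA (adjusted p = 0.00701). The first call was lost when any 1 of the 4 libraries compared was left out (adjusted p up to 0.164) and the second without Control replicate 1 (adjusted p = 0.11).

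Slc38a2, the carrier SNAT2 for small neutral amino acids, had 875 and 888 CPM with PVDF@PDA, 850 and 837 CPM with PCL@PDA and 935 and 917 CPM in Control. It fell by 0.13 ± 0.048 (SE) on the log2 scale with PCL@PDA (adjusted p = 0.0399), a call held in 7 of 13 alternatives and lost with library totals alone, with only the 4 libraries compared, and on omitting either PVDF@PDA or either Control library (adjusted p up to 0.287). Its difference with PVDF@PDA was -0.071 (adjusted p = 0.356). Slc7a1, for cationic amino acids, was below Control in all 4 libraries with a material by about the same amount, -0.12 (adjusted p = 0.108) and -0.11 (adjusted p = 0.114). It passed with the batch as a replicate block in both comparisons, at adjusted p = 0.0424 with PVDF@PDA and 0.0498 with PCL@PDA. Slc7a5, the light chain of the leucine exchanger LAT1, and its partner Slc3a2 had differences between -0.10 and 0.051 that did not pass, and neither did those of the neutral amino acid carrier Slc1a4.

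All calls among the tRNA synthetases were lower. With PVDF@PDA 7 of 16 fell and none rose (43.8% against 8.90% of all genes), namely Gars1, Iars1, Mars1, Sars1, Tars1, Yars1 and Kars1. With PCL@PDA 7 of 16 fell and none rose (43.8% against 11.3%), and Eprs1 stood in place of Mars1. The lists had 6 genes in common, 85.7% of each list, with the Control libraries shared. The shares of all genes were not matched for level. The synthetases had a median of 122 FPKM, against 3.74 FPKM for all genes of the table. The decreases were small, from 0.15 (Iars1) to 0.21 (Sars1) on the log2 scale with PVDF@PDA and from 0.14 (Yars1) to 0.24 (Tars1) with PCL@PDA. Over all 16, the median difference was -0.13 with PVDF@PDA and -0.12 with PCL@PDA, where the median of all genes was 0.0057 and 0.0089. The 16 synthetases together took 0.741% to 0.746% of the counts in the 4 libraries with a material and 0.773% and 0.774% in Control.

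Sars1, for serine, had 624 and 611 CPM with PVDF@PDA, 628 and 601 CPM with PCL@PDA and 716 and 711 CPM in Control. The 4 libraries with a material sat close together and well under Control. Sars1 fell by 0.21 ± 0.050 (SE) on the log2 scale with PVDF@PDA (adjusted p = 0.00174) and by 0.22 ± 0.050 with PCL@PDA (adjusted p = 0.000952), and only the omission of PVDF@PDA replicate 3 ended a call, that with PVDF@PDA (adjusted p = 0.0673). Tars1, for threonine, had 313 and 299 CPM with PVDF@PDA, 299 and 290 CPM with PCL@PDA and 349 and 344 CPM in Control. It too was lower in all 4 libraries, by 0.18 ± 0.052 with PVDF@PDA (adjusted p = 0.0117) and 0.24 ± 0.052 with PCL@PDA (adjusted p = 0.000666). The Tars1 call with PVDF@PDA was lost without PVDF@PDA replicate 3 or either Control library (adjusted p up to 0.233), and that with PCL@PDA was kept in all 13 alternatives.

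Yars1, for tyrosine, had 615 and 637 CPM with PVDF@PDA, 643 and 646 CPM with PCL@PDA and 714 and 707 CPM in Control. Kars1, for lysine, had 232 and 238 CPM with PVDF@PDA, 244 and 243 CPM with PCL@PDA and 268 and 271 CPM in Control. Both were lower in every library with a material than in either Control library. Yars1 fell by 0.18 with PVDF@PDA (adjusted p = 0.00671) and by 0.14 with PCL@PDA (adjusted p = 0.035), and Kars1 by 0.20 (adjusted p = 0.00699) and by 0.14 (adjusted p = 0.0483). With PVDF@PDA the Yars1 call was lost without PVDF@PDA replicate 1 or Control replicate 1 (adjusted p up to 0.165) and the Kars1 call without any 1 of the 4 libraries compared (adjusted p up to 0.125). With PCL@PDA both were lost without any 1 of the PVDF@PDA or Control libraries, with library totals alone and with only the 4 libraries compared (adjusted p up to 0.232 and 0.22), and Kars1 also in the non-robust fit.

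Gars1, for glycine, had 576 and 598 CPM with PVDF@PDA, 583 and 584 CPM with PCL@PDA and 647 and 663 CPM in Control. Iars1, for isoleucine, had 322 and 311 CPM with PVDF@PDA, 310 and 313 CPM with PCL@PDA and 352 and 352 CPM in Control. For both genes the libraries with a material formed 1 level below Control. Gars1 fell by 0.16 with PVDF@PDA (adjusted p = 0.0209) and 0.17 with PCL@PDA (adjusted p = 0.0115), and Iars1 by 0.15 (adjusted p = 0.0358) and 0.18 (adjusted p = 0.0111). With PVDF@PDA both calls were lost with library totals alone and when any 1 of the 4 libraries compared was left out (adjusted p up to 0.268 and 0.326), and with PCL@PDA when either Control library was (adjusted p up to 0.128 and 0.102).

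Mars1, for methionine, had 261 and 271 CPM with PVDF@PDA, 266 and 288 CPM with PCL@PDA and 299 and 306 CPM in Control. Eprs1, which charges both glutamate and proline tRNAs and was the most counted member, had 1368 and 1335 CPM with PVDF@PDA, 1376 and 1280 CPM with PCL@PDA and 1488 and 1464 CPM in Control. Both genes were below Control in all 4 libraries with a material, and each passed the test in 1 comparison. Mars1 fell by 0.19 with PVDF@PDA (adjusted p = 0.0115) and differed by -0.13 with PCL@PDA (adjusted p = 0.0894, or 0.0328 with the replicate block). Eprs1 differed by -0.13 with PVDF@PDA (adjusted p = 0.0647, or 0.0114 with the replicate block, and also past the threshold with DESeq2) and fell by 0.15 with PCL@PDA (adjusted p = 0.0184). The Mars1 call was lost without any 1 of the 4 libraries compared (adjusted p up to 0.171), and the Eprs1 call with library totals alone and without PCL@PDA replicate 3 or either Control library (adjusted p up to 0.185).

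Not all synthetases were lower. Rars1, for arginine, had 300 and 278 CPM with PVDF@PDA, 283 and 283 CPM with PCL@PDA and 270 and 261 CPM in Control, so that it lay above Control in all 4 libraries with a material. Nars1, for asparagine, was likewise above Control in all 4, at 720 to 757 CPM against 700 and 709 CPM. Neither passed the test: the log2 differences were 0.12 (adjusted p = 0.126) and 0.089 (adjusted p = 0.266) for Rars1, and 0.10 (adjusted p = 0.171) and 0.056 (adjusted p = 0.481) for Nars1. With library totals alone, which shifted the median of all genes to 0.042 with PVDF@PDA, these 2 genes were called higher there (adjusted p = 0.0271 and 0.0284) and 5 synthetases lower. Of all genes 8.94% were higher and 6.75% lower in that fit. Lars1, Cars1, Hars1, Aars1, Vars1 and Wars1, for leucine, cysteine, histidine, alanine, valine and tryptophan, were not called in either comparison, and their differences ran from -0.13 (Wars1, PVDF@PDA) to 0.045 (Cars1, PCL@PDA).

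**Figure D4:**
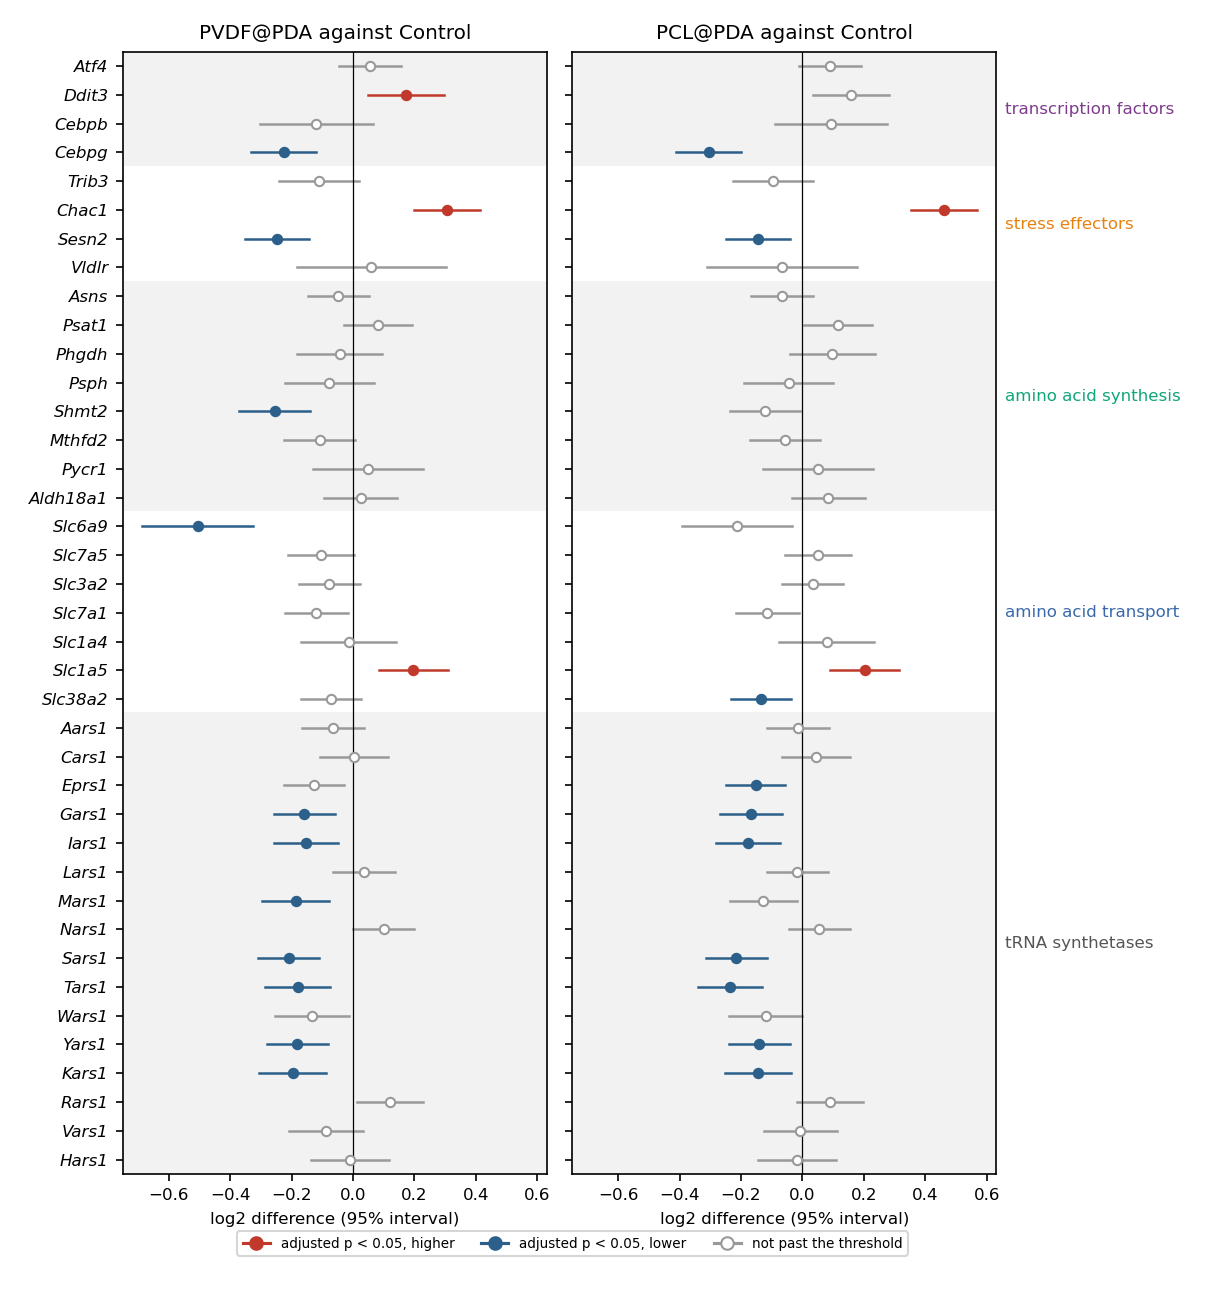
Log2 difference from Control with its 95% interval for each gene, PVDF@PDA on the left and PCL@PDA on the right; filled red points are higher and filled blue points lower at an adjusted p under 0.05, and open points did not pass. In each panel 7 of 16 synthetases are blue and none is red, and Chac1 and Slc1a5 are red in both.

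Set against the synthesis and transport genes, the synthetases had the lower median in both comparisons with Control. The 15 synthesis and transport genes had a median difference of -0.071 with PVDF@PDA, 11 of them below 0, and of 0.033 with PCL@PDA, 7 of them below 0. The same figures for the 16 synthetases were -0.13 with 12 below 0, and -0.12 with 13 below 0. Of the synthesis and transport genes, 1 rose and 2 fell with PVDF@PDA and 1 rose and 1 fell with PCL@PDA. Their lower share of 13.3% with PVDF@PDA and 6.67% with PCL@PDA was near the 8.90% and 11.3% of all genes. The contrast between the roles was described and not tested. With library totals alone, the synthetases' medians were -0.094 and -0.081, and their calls 2 higher and 5 lower with PVDF@PDA and 4 lower with PCL@PDA. The medians of all genes were then 0.042 and 0.052. Of all genes 8.94% were higher and 6.75% lower with PVDF@PDA, and 11.4% higher and 8.22% lower with PCL@PDA.

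How many synthetases passed depended on single libraries, while the sign of their median did not. In place of 7 lower with PVDF@PDA there was 1 on omitting PVDF@PDA replicate 3 or Control replicate 1, and there were 2 on omitting PVDF@PDA replicate 1 or Control replicate 3. With 4.68% to 5.74% of all genes lower in those 4 fits, these counts were near the background. On omitting either PCL@PDA library there were 9 lower, with 12.2% and 12.6% of all genes. In place of 7 lower with PCL@PDA there were 2 on omitting either Control library (all genes 5.89% and 7.80%). The median stayed between -0.14 and -0.11 for PVDF@PDA and between -0.13 and -0.069 for PCL@PDA over the omissions of 1 library. Within batch 1 the synthetases' median was -0.12 in both comparisons, and within batch 3 it was -0.14 with PVDF@PDA and -0.062 with PCL@PDA.

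Between the materials no member passed the test, and 8 of all genes did (0.0615%), 7 higher (0.0538%) and 1 lower (0.00768%) with PVDF@PDA. Libraries did not overlap for 6 members higher and 10 lower with PVDF@PDA, where 19.2% and 18.9% of all genes were so (38.0% in either direction). The count of members with an unadjusted p under 0.05 was 7, against 1105 of 13018 genes, and DESeq2 called none. All 7 were lower with PVDF@PDA than with PCL@PDA: Cebpb, Chac1, Phgdh, Shmt2, Slc6a9, Slc7a5 and Slc3a2. The largest difference was that of Slc6a9, -0.29 ± 0.089 (SE) on the log2 scale with a 95% interval of -0.47 to -0.11 (adjusted p = 0.392). It passed with the batch as a replicate block (-0.29, adjusted p = 0.0386), but the PCL@PDA libraries split. Replicates 1 and 3 had 54.0 and 71.7 CPM of Slc6a9 with PCL@PDA, against 52.1 and 50.5 CPM with PVDF@PDA. Over the 13 alternatives the difference of Slc6a9 ran from -0.48 to -0.075. For Chac1 the interval was -0.26 to -0.046 (adjusted p = 0.412), and for Slc7a5 it was -0.26 to -0.049 (adjusted p = 0.401).

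The synthetases lay at nearly the same level with either material. Their median difference was 0.0075, 9 above and 7 below 0, and none had an unadjusted p under 0.05. The 95% intervals of the 16 differences reached from -0.20 (Vars1) to 0.16 (Tars1), so differences of that size could not be resolved. The synthesis and transport genes had a median of -0.052, and 13 of 15 were below 0. Within batch 1 that median was -0.016 and within batch 3 it was -0.065, and for the synthetases the medians within batches were -0.0039 and -0.0048.

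The balance among synthesis and transport genes moved with the PCL@PDA libraries. PCL@PDA replicate 3 was the highest of all 6 libraries for 7 of these 15 genes (3 of synthesis and 4 of transport) and for 1 of 16 synthetases. It lay above replicate 1 of its group for 12 of the 15 synthesis and transport genes and for 8 of 16 synthetases, and the same difference was above 0 for 9 of the 15 within PVDF@PDA and for 7 of 15 within Control. Without PCL@PDA replicate 3 the median of the synthesis and transport genes was 0.0056, with 8 above and 7 below 0, and no member was called. Without PCL@PDA replicate 1, 9 members were called lower with PVDF@PDA: Slc6a9 (-0.48), Chac1 (-0.24), Slc7a5 (-0.23), Cebpb, Sesn2, Phgdh, Shmt2, Aldh18a1 and Vars1. In that fit 827 of all genes were called, 3.28% lower and 2.88% higher, so the gain in calls was not confined to the members. The part of that library's other differences in this result was not tested.

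**Figure D5:**
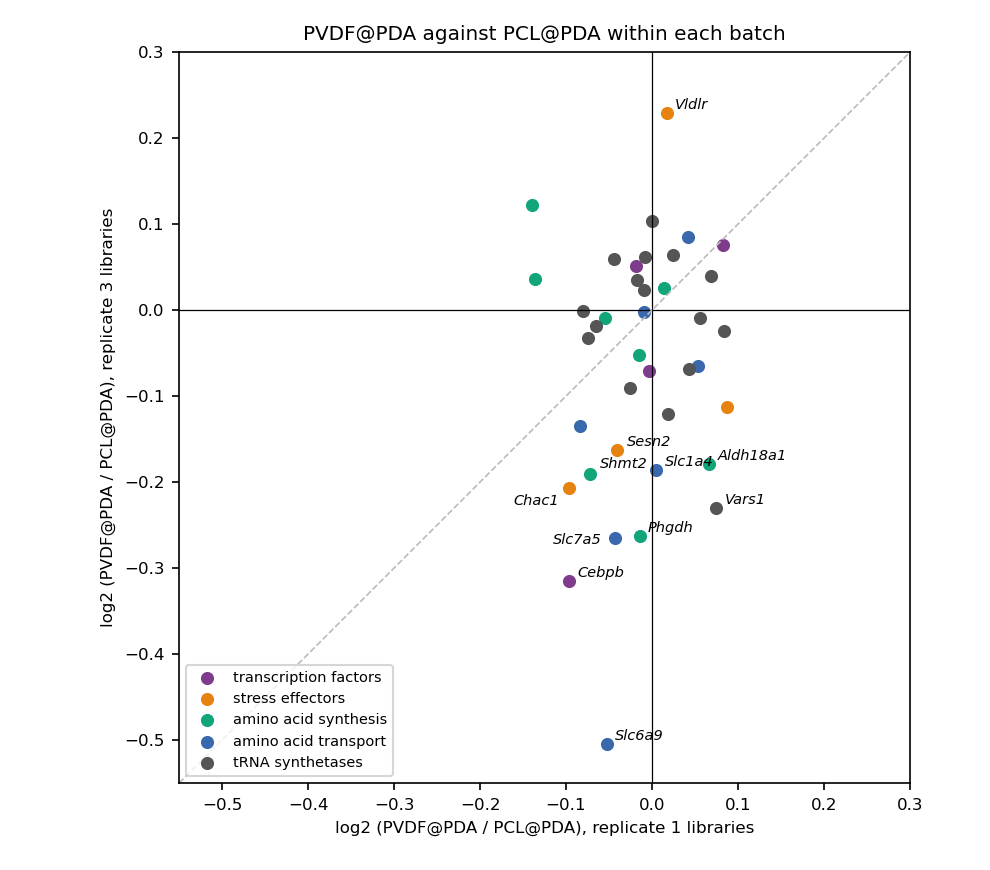
Log2 difference of PVDF@PDA from PCL@PDA for each gene, replicate 1 libraries on the horizontal axis and replicate 3 libraries on the vertical axis, with the diagonal dashed and genes beyond 0.15 on the vertical axis named. Points spread farther downward than leftward: Slc6a9 differs by -0.053 in batch 1 and -0.51 in batch 3, and Chac1 by -0.096 and -0.21.

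Upstream of ATF4, the genes of eIF2, its kinases, its exchange factor eIF2B and its phosphatase subunits had calls on the lower side only. Of 16, 3 fell and none rose with PVDF@PDA (18.8% lower, against 8.90% of all genes), and 4 fell and none rose with PCL@PDA (25.0% against 11.3%). Eif2ak2, the kinase PKR, fell by 0.26 with PVDF@PDA (adjusted p = 0.00455) and by 0.29 with PCL@PDA (adjusted p = 0.000807). Eif2b1, a subunit of eIF2B, fell by 0.32 (adjusted p = 0.00684) and by 0.37 (adjusted p = 0.00108). Ppp1r15a, the stress-induced phosphatase subunit GADD34, fell by 0.17 with PVDF@PDA (adjusted p = 0.0183), and Eif2s2 and Eif2b3 fell by 0.18 and 0.17 with PCL@PDA (adjusted p = 0.0139 and 0.0453).

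Other known targets of ATF4 changed in both directions as well. Of 20 listed, 19 were tested. With PVDF@PDA 1 of them rose and 4 fell (5.26% and 21.1%, against 6.79% and 8.90% of all genes), and with PCL@PDA 4 rose and 4 fell (21.1% each, against 8.77% and 11.3%). Atf5, a transcription factor related to ATF4, had 135 and 124 CPM with PVDF@PDA and 129 and 152 CPM with PCL@PDA, and at most 103 CPM in Control. All its libraries with a material were thus above Control, and Atf5 rose by 0.36 (adjusted p = 7.25e-05) and 0.48 (adjusted p = 3.58e-07). Ddit4, an inhibitor of mTORC1 that hypoxia also induces, rose by 0.47 with PCL@PDA (adjusted p = 0.00344), as did Atf3 by 0.22 (adjusted p = 0.00775). Xpot, which exports tRNAs from the nucleus, fell by 0.15 with either material (adjusted p = 0.0293 and 0.0187), and the secreted glycoprotein Stc2 fell by 0.30 and 0.29 (adjusted p = 0.0222 and 0.0187). Eif4ebp1, a repressor of cap-dependent translation, fell by 0.25 with PVDF@PDA (adjusted p = 0.0216), and Slc7a11, the cystine carrier, fell by 0.18 with PCL@PDA (adjusted p = 0.0147).

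For the 7 other cytosolic synthetase and scaffold genes, counts of calls are not reported here. Farsb, a subunit of the phenylalanine enzyme, fell by 0.15 (adjusted p = 0.0472) and by 0.19 (adjusted p = 0.00753), and the scaffold protein Eef1e1 fell by 0.18 with PCL@PDA (adjusted p = 0.0481). The medians over these 7 were -0.14 and -0.15. Among 17 mitochondrial synthetases 1 fell in each comparison (5.88%, against 8.90% and 11.3% of all genes). These were Tars2, by 0.31 with PVDF@PDA (adjusted p = 0.0347), and Lars2, by 0.30 with PCL@PDA (adjusted p = 0.042). The medians over the 17 were -0.081 and 0.0065. Between the materials none of the 59 tested genes of these lists was called, 5 had an unadjusted p under 0.05, and DESeq2 called none. Over the 59, calls against Control numbered 10 with PVDF@PDA (16.9%, against 15.7% of all genes), between 1 and 20 when 1 library was left out, and 16 with PCL@PDA (27.1%, against 20.1%), between 4 and 19; without Control replicate 1 they were 1 and 4.

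Called genes were found with and without the promoter element. Of the 12 genes that held it, 1 rose and 4 fell with PVDF@PDA, against 1 and 6 of the 23 genes whose window lacked it. Of all tested genes 6.79% rose and 8.90% fell in that comparison. With PCL@PDA 1 rose and 3 fell of the 12, against none and 6 of the 23, where 8.77% of all tested genes rose and 11.3% fell. The median differences were -0.088 and -0.088 with PVDF@PDA and -0.055 and -0.056 with PCL@PDA, element first. Sars1 and Kars1, both lower, had no match in their windows, and Nars1, not lower, held TGATGCAA just before its start.

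Some members share genomic space with another counted gene in the GRCr8 annotation, and the counting strand is not given in the sources used here, so reads of such pairs may be mixed. Ddit3, which rose with PVDF@PDA, overlaps Mars1, which fell. Yars1 overlaps S100pbp and Aars1 overlaps Ddx19b, which had 23728 and 16013 counts over the 6 libraries. The partners of Shmt2 (Ndufa4l2) and Slc6a9 (Ccdc24) had 486 and 221 counts.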

How the data were processed

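Raw counts for each gene in the 6 libraries were deposited by the authors, along with FPKM values. The authors' FPKM equal the count divided by 1 length per gene and by the library total, for all 15690 genes that could be checked (relative tolerance 1e-05). Per the submitters' processing notes, DESeq2 1.4.5 and mRatBN7.2 were used, with no role stated; for the aligner, counter, annotation and strand of counting, a tool or setting is not given in the sources used here.

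The fit used edgeR 4.0.16 under R 4.3.3, TMM scaling, filterByExpr, which removed 3831 of 16849 genes, and a robust quasi-likelihood fit of 3 group means over all 6 libraries (3 residual degrees of freedom, biological coefficient of variation 6.47%). P-values are 2-sided, adjusted by Benjamini-Hochberg over 13018 genes and called below 0.05. Intervals are 95%. The same code was tested on simulated data, whose planted changes were larger than nearly all called differences of the members. That test does not cover calls of smaller size. FPKM served only to compare levels between genes. Alternatives were edgeR's RLE scaling, library totals alone, no filter, DESeq2 1.42.0, a non-robust fit, only the 4 libraries compared, each library left out, and the batch as a replicate block. The labels give batch 1 to replicate 1 and batch 3 to replicate 3, so the numbers pair libraries; across genes, how far same-batch libraries lay from their group means correlated at -0.0091 between PVDF@PDA and PCL@PDA, at 0.047 between PVDF@PDA and Control, and at 0.13 between Control and PCL@PDA.

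The members and lists were chosen with earlier results of these data known. All 39 members are named; of the other lists, at most the 4 called genes with the smallest p in each list and comparison. Promoters are RefSeq windows of GRCr8, whose coordinates differ from those of the authors' build, searched on both strands. Some genes of the other lists are not reported here by name.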

Additional observations from a re-analysis of the deposited data

How the results depend on the processing

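No called member changed sign in any of the 13 alternatives, and 4 of 14 calls with PVDF@PDA (Chac1, Sesn2, Shmt2, Slc6a9) and 4 of 12 with PCL@PDA (Cebpg, Chac1, Sars1, Tars1) held in all of them. Signs changed only among members not called, 8, 12 and 19 of them in the 3 comparisons (PVDF@PDA and PCL@PDA against Control, then the materials). Leaving out 1 library gave 5 to 20 called members with PVDF@PDA (14 with all), 4 to 18 with PCL@PDA (12) and 0 to 9 between the materials (0). Over all genes the same fits called 7.71% to 21.4%, 10% to 23.6% and 0 to 6.16%. For the other pathway lists it gave 1 to 20 (10), 4 to 19 (16) and 0 to 7 (0). The lone library left in a group is then assumed to vary like the other groups. Library totals alone gave 5 and 8 called genes of the other lists against Control, with 15.7% and 19.6% of all genes called. Only the 4 libraries compared gave 20 with PVDF@PDA, with 22.2% of all genes called. With the batch as a replicate block, 16 members were called in each comparison with Control and 1, Slc6a9, between the materials. Calls over all genes rose with the block too, to 19.9%, 23.4% and 0.453% in the 3 comparisons. The block ended no call, added those named above and left the other lists at 14, 17 and 0. The motif TGATGCAA was found in 10 member promoters and TGATGNAA in 12. The cause of these changes was not tested. With 2 libraries a group, differences within the intervals given could not be resolved.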
